A study of Mus musculus with 20 samples.

Results

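The genes described here are 10 regulators and partners of the transcription factor NRF2: Nfe2l2, which encodes NRF2 itself, its relative Nfe2l1, the repressors Keap1 and Bach1, the small MAF genes Mafg, Maff and Mafk, and Sqstm1, Cul3 and Osgin1. They were taken by symbol from a table of 49315 genes, and all 10 were found and passed the minimum of 1 TPM on average. TPM states what part of a library's transcripts a gene makes up, corrected for gene length, so levels of different genes can be set side by side. The table covers the livers of 20 obese mice in which the AMLN diet, rich in fat, fructose and cholesterol, had brought on steatohepatitis (the DIO-NASH model). S217879 was given orally to 10 of them, 30 mg/kg every day, and the other 10 had the vehicle, 1% hydroxyethylcellulose (HEC), each over 8 weeks, with 1 library per separately numbered animal. No genetic change is given for either group, and by the series title S217879 disrupts the binding of NRF2 to KEAP1.

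KEAP1 is the substrate adaptor of a CUL3 ubiquitin ligase that marks NRF2 for destruction in unstressed cells. Electrophiles, oxidants or compounds that occupy the NRF2 pocket of KEAP1 let NRF2 protein build up, enter the nucleus, pair with a small MAF protein and bind antioxidant response elements beside genes of glutathione, quinone and iron metabolism. Control of NRF2 is thus mainly at the protein level, and what is measured here is RNA only. In liver the pathway is known for detoxification and for defence against oxidants.

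Nfe2l2 and Maff RNA fell in livers given S217879, and with TPM as deposited none of the 10 genes was called higher. In limma, with Benjamini-Hochberg adjustment over 13401 genes and a threshold of 0.05, 2 of the 10 were lower, against 23.5% of all tested genes, and 0 of the 10 were higher, against 6.07% of all tested genes. The share of lower genes among the 10 is thus close to that of the table as a whole. The median log2 difference was -0.03 over the 10 genes and -0.12 over all tested genes. No gene of the 10 had all its S217879 libraries above all its vehicle libraries, as deposited or after the scaling described next, a separation shown by 1.84% of all tested genes as deposited and by 7.54% of them after scaling.

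Library scale bears on the other 8 genes. The 4 rRNA-type gene models Gm23935, Gm24270, Gm42418 and Mir6236 took 14.1% to 38.1% of all TPM in the S217879 libraries, 58.2% and 50.7% in vehicle replicates 6 and 7, and 17.4% to 31.4% in the other 8 vehicle libraries, and every other gene of replicates 6 and 7 has a smaller share of its total left. Values were also given after median-of-ratios scaling, which sets each library to a common level over its genes. It shifts the median log2 difference of all tested genes by 0.11, from -0.12 to -0.01. On that scale 4 of the 10 genes were higher, against 26.6% of all tested genes, and 2 lower, against 27.1%. Rescaling TPM without the 4 rRNA-type genes moved values the other way, to a median of -0.26 over all tested genes. In that setting 0 of the 10 genes were higher and 6 lower, where 1033 of all 14445 tested genes were higher and 9113 lower. Ratios between 2 genes of the same library do not depend on its scale and are given further on.

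**Figure D1:**
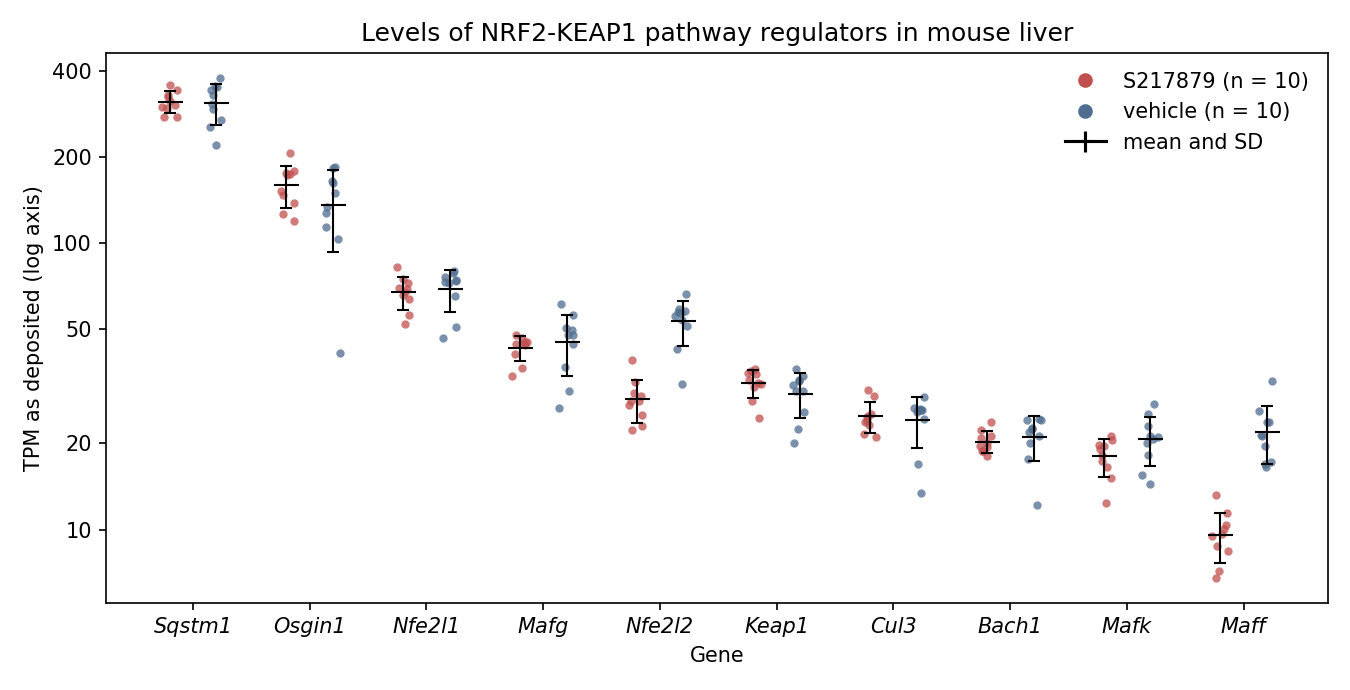
Level of each of the 10 genes in TPM as deposited (log axis), 1 point per library, S217879 left of vehicle (n = 10 each), with the mean and SD in black. Sqstm1 is the most abundant at about 310 TPM in both groups, and Nfe2l2 and Maff are lower in S217879. Only the points of Maff are fully apart. For Nfe2l2, S217879 replicates 4 and 9 lie above vehicle replicate 6, and the points of the other 8 genes also overlap between the groups.

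Nfe2l2, the gene of NRF2 (GRCm38, chr2:75675513-75704641, minus strand), had a lowest, median and highest level of 22.3, 28.1 and 39.2 TPM in S217879 livers, against 32.2, 56.3 and 66.3 TPM in vehicle livers. Of the S217879 libraries, 8 lay below the lowest vehicle library, which was replicate 6, and S217879 replicates 4 and 9 lay above it. The mean was 28.5 ± 4.91 TPM in S217879 and 53.4 ± 9.53 TPM in vehicle (SD, n = 10 each). On the log2(TPM + 0.5) scale the difference was -0.89 with a standard error of 0.12 (95% interval -1.13 to -0.64, limma adjusted p 3.075e-07), or 54.1% of the vehicle level. Once scaled, the 2 groups were fully apart, with 26.5 to 34.0 TPM in S217879 and 45.2 to 54.6 TPM in vehicle, a separation toward lower values that 5.04% of all tested genes showed on that scale. The scaled log2 difference was -0.77 (limma adjusted p 4.490e-11). In bulk liver, fewer cells of a type and less RNA per cell cannot be told apart.

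Nfe2l1 encodes NRF1, a relative of NRF2 that sits in the endoplasmic reticulum membrane and, once released, drives proteasome genes. It gave 52.4, 68.4 and 82.8 TPM (lowest, median and highest) in S217879 livers, against 46.6, 73.5 and 79.8 TPM in vehicle livers. The ranges overlapped almost wholly. The log2 difference was -0.03 (95% interval -0.27 to 0.21, limma adjusted p 0.896) and 0.09 after scaling (limma adjusted p 0.112), so its direction turned with the scaling. Nfe2l2 stood at 0.425 ± 0.0738 of the Nfe2l1 level in S217879 and at 0.771 ± 0.0583 of it in vehicle (SD, n = 10 each), and every S217879 ratio lay below every vehicle ratio.

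The small MAF proteins have a DNA-binding and dimerisation domain but no activation domain of their own. They form activating pairs with NRF2 and NRF1, and repressing pairs with BACH1 or with each other. Of the 3 genes, only Maff differed as deposited. Maff (chr15:79346621-79359076, plus strand), which in mouse and human cells is also known as a stress-inducible member of the family, had 6.79, 9.56 and 13.3 TPM in S217879 livers and 16.5, 21.3 and 33.0 TPM in vehicle livers (lowest, median and highest). Every S217879 library was below every vehicle library, on this scale and after scaling, a separation that 1.89% of all tested genes showed toward lower values as deposited. The mean was 9.54 ± 1.93 TPM in S217879 and 22.0 ± 5.03 TPM in vehicle (SD, n = 10 each), and the log2 difference was -1.16 with a standard error of 0.12 (95% interval -1.40 to -0.91, limma adjusted p 1.080e-09), or 44.9% of the vehicle level.

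Mafg, the most abundant of the 3 in every library, gave 34.5, 44.5 and 47.8 TPM in S217879 livers, against 26.5, 47.8 and 61.3 TPM in vehicle livers (lowest, median and highest). The vehicle libraries spread on both sides of the S217879 ones, and 5 of them lay above the highest S217879 library. The log2 difference of -0.04 (95% interval -0.29 to 0.22, limma adjusted p 0.868) turned to 0.08 after scaling (limma adjusted p 0.247). Mafk gave 12.4, 18.7 and 21.2 TPM in S217879 livers and 14.4, 20.9 and 27.5 TPM in vehicle livers. The ranges overlapped, and the log2 difference was -0.19 (95% interval -0.42 to 0.05, limma adjusted p 0.236). It was -0.07 after scaling (limma adjusted p 0.425), and without vehicle replicates 6 and 7 it was -0.30 and passed (limma adjusted p 0.0105).

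The makeup of the small MAF pool differed accordingly. Mafg made up 61.1% ± 2.09 of the summed TPM of the 3 genes in S217879 and 51.1% ± 3.20 in vehicle (SD, n = 10 each). The Maff share was 13.4% ± 1.46 in S217879, between 12.1% and 16.3%, and 25.1% ± 2.87 in vehicle, between 20.7% and 29.8%. The Mafk share was 25.5% ± 1.79 in S217879 and 23.7% ± 1.48 in vehicle. The summed level was 70.6 ± 8.32 TPM in S217879 and 87.9 ± 19.0 TPM in vehicle, with overlapping ranges. These shares follow from the levels above and were not tested separately.

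The promoters of Nfe2l2 and of the small MAF genes are shown because these are the genes of the group whose window holds the core of the antioxidant response element, TGACNNNGC, the sequence that NRF2 and small MAF pairs are known to bind. The windows are those of RefSeq on GRCm38.p6, from 250 bases before to 50 bases after each annotated start, and all 10 genes had at least 1. Both strands were searched, and a match is a description of the letters and no evidence of binding. Capitals mark the match, and each stretch is written 5′ to 3′ on the strand that carries it.
Nfe2l2: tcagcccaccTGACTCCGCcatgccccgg
Mafg: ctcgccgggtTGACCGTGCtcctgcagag
Maff: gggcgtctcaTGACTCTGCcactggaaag
Mafk: tccccagtacTGACACCGCttccgggatc
The Nfe2l2 stretch is chr2:75704885-75704913 on the minus strand, the strand of the gene, and its match begins 240 bases before the start. The Mafg stretch is chr11:120633751-120633779 on the plus strand, opposite to the gene, with the match reaching 222 bases before the start. The Maff stretch is chr15:79346499-79346527 on the plus strand, the strand of the gene, 112 bases before the start. The Mafk stretch is chr5:139791513-139791541 on the minus strand, opposite to the gene, 13 bases before the start.

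Thus both genes whose RNA fell, Nfe2l2 and Maff, carry a match in a window, and so do Mafg and Mafk, which were not called as deposited. The other 6 genes of the group had no match in their windows, which says nothing of elements farther away. Over the whole RefSeq table, 3781 of 27025 genes (14.0%) had a match in at least 1 window, and 4071 of 32851 windows (12.4%) held one. Of the NRF2 target genes listed below that had a window, 9 of 20 had a match, and Nqo1, a classical target, had none in its window.

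Keap1 and Cul3 encode the adaptor and the scaffold of the ligase that degrades NRF2. Keap1 (chr9:21229730-21239361, minus strand) gave 24.5, 33.0 and 36.3 TPM in S217879 livers, against 19.99, 31.3 and 36.4 TPM in vehicle livers (lowest, median and highest). The groups overlapped as deposited, with a log2 difference of 0.13 (95% interval -0.10 to 0.36, limma adjusted p 0.416). After scaling, 9 of 10 S217879 libraries lay above the highest vehicle library, and the log2 difference was 0.25 (limma adjusted p 2.271e-04). The call thus depends on the scale, and when the rRNA-type genes were removed and TPM rescaled the difference was -0.01.

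Cul3 gave 21.01, 24.3 and 30.7 TPM in S217879 livers and 13.4, 26.2 and 28.9 TPM in vehicle livers, the lowest vehicle value being that of replicate 6. The groups overlapped, and the log2 difference was 0.07 (95% interval -0.18 to 0.31, limma adjusted p 0.720), 0.18 after scaling (limma adjusted p 0.00938) and -0.09 without vehicle replicates 6 and 7 (limma adjusted p 0.266). Bach1 encodes a repressor that competes with NRF2 for the same elements and leaves DNA when it binds heme. It gave 18.1, 19.8 and 23.8 TPM in S217879 livers and 12.2, 22.3 and 24.4 TPM in vehicle livers. These ranges overlapped, with a log2 difference of -0.04 (95% interval -0.26 to 0.19, limma adjusted p 0.845), 0.08 after scaling (limma adjusted p 0.197) and -0.16 without vehicle replicates 6 and 7 (limma adjusted p 0.0299).

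Sqstm1 encodes p62, an autophagy receptor that binds KEAP1 and carries it to the autophagosome, and is itself a known NRF2 target. It was the most abundant of the 10 in both groups, with 275.8, 310.0 and 357.8 TPM in S217879 livers, against 219.9, 318.4 and 378.0 TPM in vehicle livers. The vehicle range enclosed the S217879 range. The log2 difference was 0.02 (95% interval -0.22 to 0.26, limma adjusted p 0.906), 0.14 after scaling (limma adjusted p 0.0259) and -0.07 without vehicle replicates 6 and 7. Osgin1 encodes an oxidative stress-induced growth inhibitor and is known as an NRF2 target. It gave 119.9, 163.0 and 206.4 TPM in S217879 livers and 41.5, 142.0 and 184.6 TPM in vehicle livers, again with overlap and with replicate 6 lowest. The log2 difference was 0.30 (95% interval -0.11 to 0.71, limma adjusted p 0.268), 0.42 after scaling (limma adjusted p 0.0198) and 0.08 without vehicle replicates 6 and 7 (limma adjusted p 0.565).

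**Figure D2:**
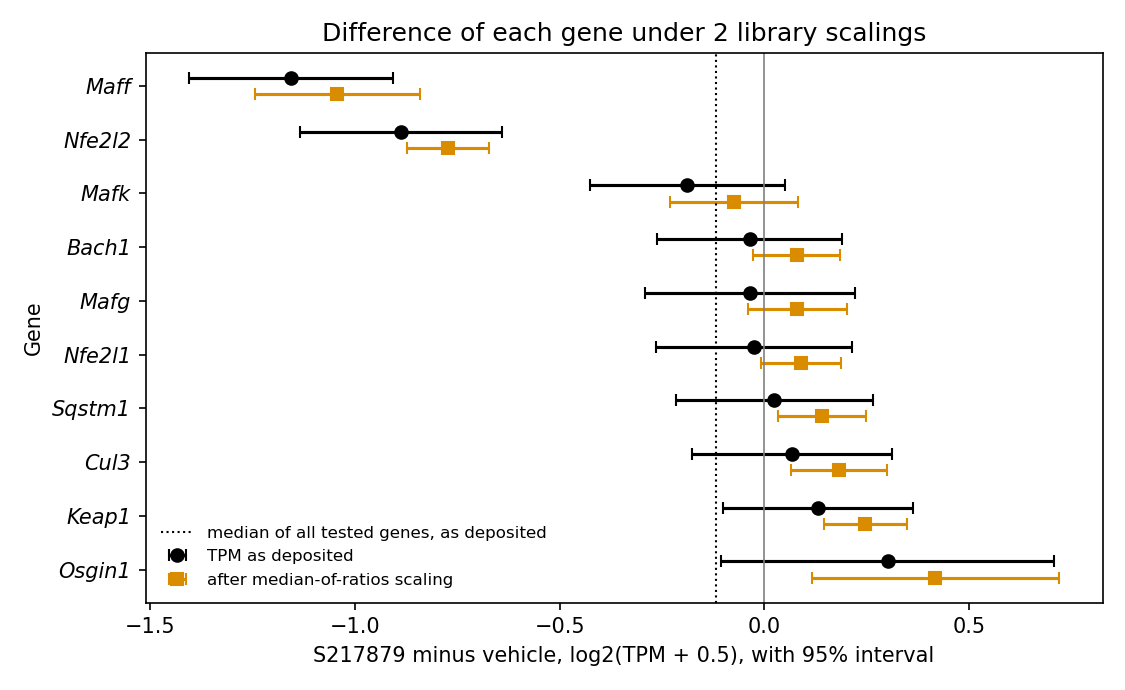
S217879 minus vehicle difference of each gene on the log2(TPM + 0.5) scale with its 95% interval, as deposited (black circles) and after median-of-ratios scaling (orange squares), with the median of all tested genes as deposited as a dotted line. Maff and Nfe2l2 lie far below 0 on both scales, while Keap1, Cul3, Sqstm1 and Osgin1 have intervals above 0 only after scaling.

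Some reads of 4 of the genes may not be theirs alone. In the GENCODE M21 annotation, exons of Keap1 share 510 bases with the antisense gene Gm16754, those of Sqstm1 580 bases with Mrnip on the opposite strand, those of Mafk 169 bases with Tmem184a on the opposite strand, and those of Mafg 124 bases with Sirt7 on the same strand. The library kit keeps strand, but the sources used here do not say whether counting used it. Nfe2l2 and Maff share no exonic bases with another gene.

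The order of mean levels in S217879 livers, on the TPM scale, was Sqstm1, Osgin1, Nfe2l1, Mafg, Keap1, Nfe2l2, Cul3, Bach1, Mafk and Maff. In vehicle livers it was Sqstm1, Osgin1, Nfe2l1, Nfe2l2, Mafg, Keap1, Cul3, Maff, Bach1 and Mafk. Nfe2l2 was thus at rank 6 in S217879 and rank 4 in vehicle, and Maff at rank 10 in S217879 and rank 8 in vehicle. In S217879 livers the neighbours Keap1 and Nfe2l2 kept that order in 7 of 10 libraries, while in vehicle livers Nfe2l2 was above Mafg, the next gene, in 10 of 10. At the low end of the vehicle order the neighbours were not separate, since Cul3 was above Maff in 7, Maff above Bach1 in 6 and Bach1 above Mafk in 6 of 10 libraries.

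Within libraries, Nfe2l2 RNA was lower against Keap1, Nfe2l1, Bach1 and the sum of the small MAF genes. Its ratio to Maff alone, which had the larger drop, was not tested. A set of 6 ratios was compared by two-sided permutation tests of the mean log2 ratio (100000 resamples), adjusted over the 6. The Nfe2l2/Keap1 ratio was 0.731, 0.801 and 1.19 in S217879 livers and 1.55, 1.78 and 2.15 in vehicle livers (lowest, median and highest). Vehicle livers thus all held more Nfe2l2 than Keap1 RNA per length, and of the S217879 livers only replicates 3, 4 and 9 did. The mean ratio was 0.885 ± 0.157 in S217879 and 1.79 ± 0.175 in vehicle (SD, n = 10 each), with a log2 difference of -1.03 and an adjusted p of 3.000e-05 (permutation test), whose raw value of 2.000e-05 is the smallest these permutations can give.

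The same adjusted p was reached by the Nfe2l2/Nfe2l1 ratio (log2 difference -0.87), by the Bach1/Nfe2l2 ratio and by the ratio of the small MAF sum to Nfe2l2 (permutation tests). Bach1 stood at 0.726 ± 0.105 of the Nfe2l2 level in S217879 and at 0.396 ± 0.0315 of it in vehicle (log2 difference 0.86). The small MAF sum was 2.52 ± 0.389 times Nfe2l2 in S217879 and 1.65 ± 0.158 times Nfe2l2 in vehicle (log2 difference 0.61). In each of these 4 ratios all 10 S217879 libraries lay beyond the vehicle range. The 4 share Nfe2l2 and are not independent of each other.

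The ratios without Nfe2l2 differed less. Sqstm1/Keap1 was 9.69 ± 0.692 in S217879 and 10.4 ± 0.649 in vehicle (SD, n = 10 each), below the vehicle median in 9 of 10 S217879 libraries, with a log2 difference of -0.11 and an adjusted p of 0.0249 (permutation test). Without vehicle replicates 6 and 7 it was -0.09 with an adjusted p of 0.0883. Cul3/Keap1 was 0.778 ± 0.155 in S217879 and 0.806 ± 0.0949 in vehicle, with a log2 difference of -0.06 and an adjusted p of 0.516 (permutation test). S217879 replicate 3 had the highest of these ratios at 1.20, and without it the log2 difference was -0.14 with an adjusted p of 0.0380.

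**Figure D3:**
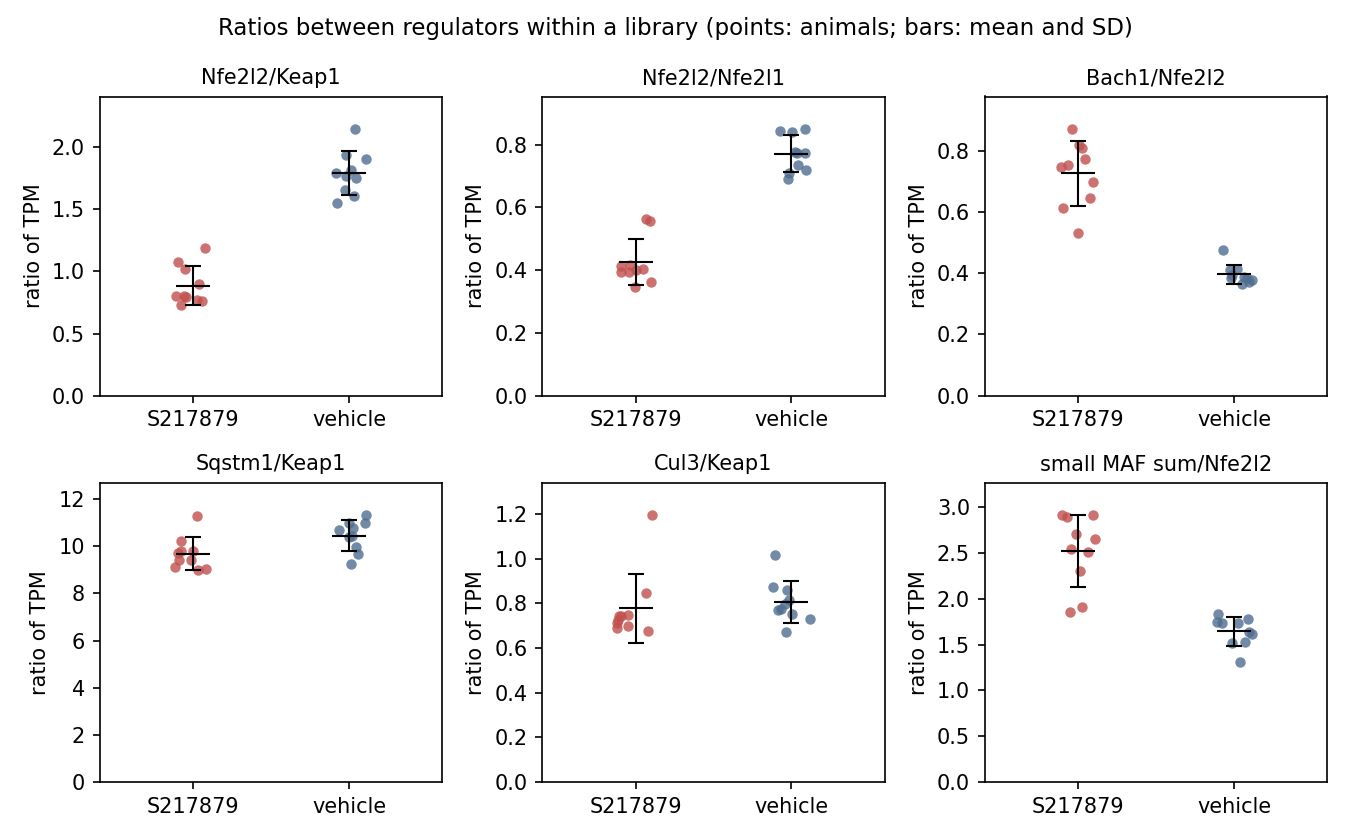
The 6 ratios between TPM values of the same library, 1 point per library, S217879 left of vehicle (n = 10 each), with the mean and SD in black. The 4 ratios that hold Nfe2l2 are separate between the groups, while Sqstm1/Keap1 and Cul3/Keap1 overlap.

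Cell type markers moved alongside these changes, and their counts are to be read against the 23.5% lower and 6.07% higher of all tested genes. Of the macrophage markers, 0 were higher and 7 of 9 tested were lower, with a summed level of 349 to 629 TPM in S217879 and 553 to 937 TPM in vehicle, led by Cd63 and Gpnmb. Of the hepatic stellate cell markers, 10 of 10 were lower, with 216 to 404 TPM in S217879 and 295 to 547 TPM in vehicle. Of the sinusoidal endothelial markers, 6 of 10 were higher, with 182 to 246 TPM in S217879 and 99.1 to 211 TPM in vehicle. That count depended on the scale. After scaling 9 endothelial markers were higher, against 26.6% of all tested genes. Without vehicle replicates 6 and 7, 4 were higher and 1 lower, where 747 of all 13428 tested genes were higher and 7307 lower. Of 9 hepatocyte markers, 2 were higher and 2 lower, and their sum, 38311 to 61060 TPM in S217879 and 31599 to 71711 TPM in vehicle, far exceeded that of every other list, as the tissue label liver implies.

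The other lists were small. Of the cholangiocyte markers 2 of 5 tested were lower (90.0 to 246 TPM in S217879, 179 to 470 TPM in vehicle), of the lymphocyte markers 1 of 6 (23.1 to 180 TPM in S217879, 28.9 to 471 TPM in vehicle) and of the neutrophil markers 1 of 3 (5.38 to 20.1 TPM in S217879, 8.37 to 24.7 TPM in vehicle). Of the adipocyte markers Cfd was higher and Fabp4 lower among 2 tested (49.8 to 228 TPM in S217879, 12.1 to 51.3 TPM in vehicle). Fabp4 was not called after scaling (limma adjusted p 0.0679). Most of the cholangiocyte sum was Spp1 alone, with a mean of 144 TPM in S217879 and 286 TPM in vehicle. Most of the adipocyte sum was Cfd, with a mean of 102 TPM in S217879 and 20.8 TPM in vehicle. Ly6g, a defining neutrophil gene, and Lep, the leptin gene of fat cells, had a median of 0 over all libraries. The part of these cell types in the lower Nfe2l2 and Maff levels was not tested.

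Of the other genes of the pathway, the targets of NRF2 moved and most of its degradation machinery did not pass the test as deposited. Of 24 core targets 23 were tested, and 21 were higher, against 6.07% of all tested genes. The list median log2 difference was 1.32, against -0.12 over all tested genes. This list was chosen with earlier results of these data known, so its count describes the list and is no independent test. Nqo1 had 74.9, 101.6 and 122.3 TPM in S217879 livers and 8.51, 15.7 and 19.6 TPM in vehicle livers (lowest, median and highest), without overlap. Cbr3, a carbonyl reductase, averaged 524 ± 149 TPM in S217879 and 8.25 ± 1.83 TPM in vehicle (SD, n = 10 each), with a log2 difference of 5.87 (limma adjusted p 1.691e-23). Gpx2, a glutathione peroxidase, averaged 33.1 ± 11.3 TPM in S217879 and 0.426 ± 0.158 TPM in vehicle. It reached the minimum of 1 TPM only through the S217879 libraries, so its place among the higher genes is a description.

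The core targets that did not pass were Hmox1, the heme oxygenase gene that BACH1 also represses, and G6pdx of the pentose phosphate pathway. Hmox1 averaged 42.7 ± 9.02 TPM in S217879 and 50.1 ± 9.07 TPM in vehicle (limma adjusted p 0.163). G6pdx averaged 6.95 ± 0.754 TPM in S217879 and 7.20 ± 1.02 TPM in vehicle (limma adjusted p 0.783). They are named here after their values were seen, as the exceptions of the list.

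Of 9 genes of BACH1 turnover and repression, 3 were higher, against 6.07% of all tested genes, and 0 lower, against 23.5%, with a list median log2 difference of -0.0045. The 3 were the heme transporter Slc48a1, with 136 ± 19.1 TPM in S217879 and 46.8 ± 8.82 TPM in vehicle (log2 difference 1.54, limma adjusted p 5.305e-13), and the ferritin chains Ftl1 and Fth1 with log2 differences of 1.09 and 0.92. Their groups did not overlap, a separation toward higher values that 1.84% of all tested genes showed. The ferritins are known targets of NRF2 as well as of BACH1. The counts of this list depended on the scale. After scaling 5 of the 9 were higher and 0 lower, against 26.6% higher and 27.1% lower of all tested genes. Without vehicle replicates 6 and 7, 3 were higher and 3 lower, where 7307 of all 13428 tested genes were lower. Without the rRNA-type genes 3 were higher and 5 lower, where 9113 of all 14445 tested genes were lower.

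Of 15 parts of cullin ligases and of the NEDD8 cycle, which switches cullins on, none was called as deposited, with a list median of 0.03. After scaling 9 were higher, against 26.6% of all tested genes. Without vehicle replicates 6 and 7, 4 were lower, where 7307 of all 13428 tested genes were lower. Without the rRNA-type genes 7 were lower, where 9113 of all 14445 tested genes were lower. Of 12 tested genes of NRF2 degradation without KEAP1, Skp1a was higher and Usp11 lower, against 6.07% higher and 23.5% lower of all tested genes. Skp1a, a subunit of the ligase that recognises NRF2 through bTrCP, averaged 213 ± 31.0 TPM in S217879 and 146 ± 30.7 TPM in vehicle (log2 difference 0.56, limma adjusted p 0.00103). Usp11, a deubiquitinase, averaged 1.13 ± 0.227 TPM in S217879 and 1.51 ± 0.319 TPM in vehicle (log2 difference -0.30, limma adjusted p 0.0332). Of 10 tested genes for KEAP1-binding proteins only Mcm3, a replication helicase subunit, was called, as lower, against 23.5% lower of all tested genes. Mcm3 averaged 4.24 ± 0.784 TPM in S217879 and 6.74 ± 1.68 TPM in vehicle (log2 difference -0.59, limma adjusted p 1.829e-04). These counts too depended on the scale. After scaling, 5 genes of degradation without KEAP1 were higher and 1 lower, against 26.6% higher and 27.1% lower of all tested genes. Of the KEAP1-binding genes 4 were then higher and 3 lower. Without vehicle replicates 6 and 7, lower genes numbered 6 for degradation without KEAP1 and 5 for KEAP1 binding (7307 of 13428 over all tested genes).

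Among 17 genes of selective autophagy, 2 were higher and 1 lower, against 6.07% higher and 23.5% lower of all tested genes. Gabarapl1, an ATG8-family protein that receptors such as p62 bind, averaged 447 ± 43.3 TPM in S217879 and 330 ± 78.7 TPM in vehicle (log2 difference 0.47, limma adjusted p 0.00610). Atg5, needed to attach ATG8 proteins to membranes, had a log2 difference of 0.36, and Tfeb, the transcription factor of lysosome genes, one of -0.34 (limma adjusted p 0.0217 for Atg5 and 0.0179 for Tfeb).

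Of 14 tested NRF2 coactivators and corepressors, 0 were higher and 5 lower, against 23.5% of all tested genes, with a list median of -0.20. Cdkn1a, the cell cycle inhibitor p21, which is known to shield NRF2 from KEAP1, averaged 9.95 ± 3.30 TPM in S217879 and 20.5 ± 4.65 TPM in vehicle (log2 difference -1.04, limma adjusted p 2.309e-06). Crebbp, the histone acetyltransferase CBP, averaged 4.36 ± 0.558 TPM in S217879 and 6.18 ± 0.415 TPM in vehicle, without overlap (log2 difference -0.47, limma adjusted p 1.467e-04). Ep300, a relative of CBP, and Rara, a retinoic acid receptor, were also lower, with log2 differences of -0.27 and -0.41 (limma adjusted p 0.0321 for Ep300 and 0.00968 for Rara).

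Of 12 genes for processing of NRF1, 1 was higher and 2 lower, against 6.07% higher and 23.5% lower of all tested genes. Ubqln2, a ubiquilin that carries ubiquitinated proteins to the proteasome, averaged 23.9 ± 1.81 TPM in S217879 and 17.9 ± 3.16 TPM in vehicle (log2 difference 0.42, limma adjusted p 0.00265). Fbxw7, a ligase subunit, and Hcfc1, a transcriptional cofactor, had log2 differences of -0.33 and -0.32 (limma adjusted p 0.00763 for Fbxw7 and 0.0166 for Hcfc1). Of 7 relatives of NRF2 in the CNC and large MAF families only 3 were tested and none was called as deposited or after scaling. Without vehicle replicates 6 and 7, 2 of the 3 were lower, where 7307 of all 13428 tested genes were lower. The counts for NRF1 processing and for autophagy also depended on the scale. After scaling, 8 NRF1 processing genes were higher and 3 lower, and 9 autophagy genes were higher and 4 lower, against 26.6% higher and 27.1% lower of all tested genes. Without vehicle replicates 6 and 7, 1 NRF1 processing gene was higher and 4 lower, and 2 autophagy genes were higher and 8 lower, where 747 of all 13428 tested genes were higher and 7307 lower.

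**Figure D4:**
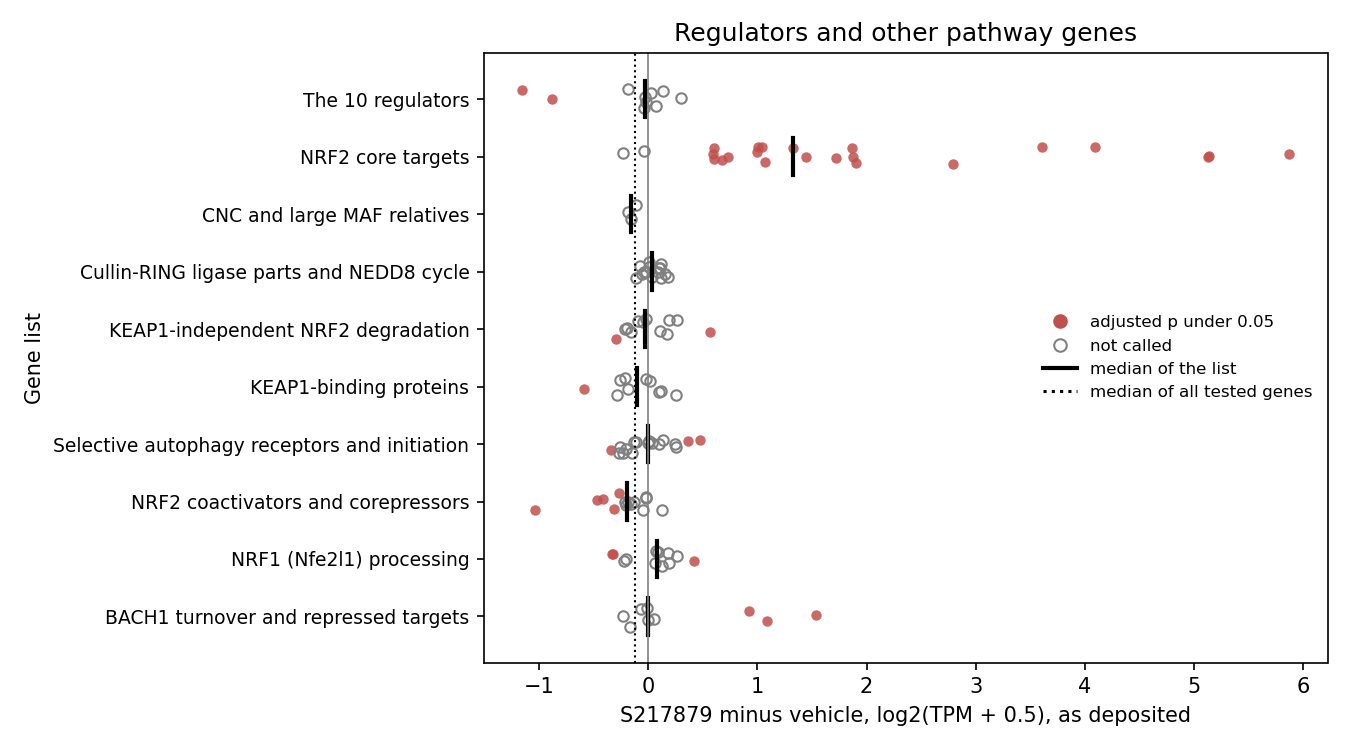
S217879 minus vehicle difference of each tested gene of the 10 regulators and of 9 other pathway lists, on the log2(TPM + 0.5) scale as deposited, with filled points for genes called by limma. The NRF2 core targets spread up to 5.87 with a median of 1.32, while the medians of the other lists lie between -0.20 and 0.08.

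Within groups, the level of the regulators was also set against Nqo1 as a readout of the pathway, on the scaled values, since the groups are separate for Nqo1. Of 6 relations (Nfe2l2, Sqstm1 and Mafg in each group, n = 10), only Mafg in vehicle passed, with Pearson's r 0.85 (permutation p 0.00263, adjusted 0.0158) and Spearman's rho 0.89 (permutation p 0.00121, adjusted 0.00726). Without the 2 libraries farthest from the median of Mafg r was 0.62 over 8 libraries and did not pass (permutation test, adjusted p 0.244). The other 5 had r between -0.21 and 0.46 and adjusted permutation p of at least 0.565. Nfe2l2 had r -0.21 in S217879 and 0.13 in vehicle, and without the 2 farthest libraries of each group -0.70 in S217879 and 0.57 in vehicle, with none of these passing (permutation test, adjusted p 0.244 for both of the last). With TPM as deposited, r in vehicle was 0.93 for Nfe2l2, 0.95 for Sqstm1 and 0.98 for Mafg, values that all share the scale of each library.

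Among the genes whose variation between animals was most like that of Nfe2l2 were the predicted gene Gm28437 (Pearson's r 0.80), Ccnh, a cyclin of the CDK-activating kinase (0.76), Zcchc10 (0.76) and Cask, a membrane scaffold kinase (0.76). These values are over 20 libraries after scaling and centring of each group. Over all 13400 other tested genes r ran from -0.54 at the 5th to 0.54 at the 95th percentile, and these 4 were picked from its upper end. None of the 4 passed the test between the groups in limma (adjusted p from 0.152 to 0.842). Among the regulators, Cul3 was most like Nfe2l2 (0.42) and Keap1 least (-0.62), with Maff at 0.07.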

How the data were processed

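Liver RNA of 20 mice was measured in 2 groups of 10. Per the labels' protocols, an RNA kit for lipid-rich tissue and a stranded polyA library kit were used. The tools named in the submitters' processing notes are STAR 2.5.2b, Trimmomatic 0.36, Subread 1.5.2 and featureCounts, with the build GRCm38. The sources used here do not state their settings or the annotation. The authors deposited TPM values, which sum to 1000000 per library and keep no depth, so reads per library are unknown, no counting interval can be given and precision is the spread between animals. Between 24659 and 27744 genes per library were above 0. Columns were matched to animals by number, with 0 left unmapped and 0 pairs of identical libraries. Symbols and coordinates came from GENCODE M21 (48970 genes).

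On the log2(TPM + 0.5) scale, the 13401 genes that averaged 1 TPM or more were fitted with limma 3.58.1 in R 4.3.3 (trend and robust, Benjamini-Hochberg over all genes). Log2 differences understate changes of low genes. On simulated data for the 13401 genes of this comparison, the steps recovered 60.0% of genes changed by 0.5 and 98.0% of those changed by 1 on the log2 scale. There each gene was drawn independently and only 200 were changed. Shifts in library scale that genes share were not simulated, so recovery in the real data may differ. The labels give no batch. Alternatives were other pseudocounts and minima, other scalings, array weights, a Wilcoxon test and leaving out libraries. Those on counts in pathway lists were added after seeing the data. The 10 genes, the pathway lists and the marker lists were chosen with earlier results of these data known. Of each list, the 2 called genes highest and the 2 lowest in log2 difference were named, and the genes most like Nfe2l2 across libraries, of which 1 is not reported here. Some listed symbols (Skp1, Tf, Nestin, Ufd1l and Wdr23) are not names used in the table.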

Additional observations from a re-analysis of the deposited data

Results flagged for a closer look

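Of 32 groups of 10 values (the 10 genes and the 6 ratios in S217879 and in vehicle), 2 held a library whose gap to its nearest neighbour exceeded the 95% critical value of Dixon's test, a set share of the group's range. Chance flags about 1 in 20 groups. The Cul3/Keap1 ratio of S217879 replicate 3 was 1.197, with a gap of 0.674 of the range. The Bach1/Nfe2l2 ratio of vehicle replicate 10 was 0.4749, with a gap of 0.554 of the range, and it still lay below the lowest S217879 ratio of 0.532.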

How the results depend on the processing

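Nfe2l2 and Maff were lower and called in 34 of 34 alternatives, with log2 differences of -1.03 to -0.77 for Nfe2l2 (adjusted p 2.808e-12 to 6.991e-04) and -1.31 to -1.04 for Maff (1.014e-20 to 2.901e-04). The number of the 10 genes called higher, 0 as deposited, was 4 with median-of-ratios scaling and 2 with quantile normalization. The number called lower, 2 as deposited, was 6 without the rRNA-type genes (9113 of all 14445 tested genes were lower), 4 with array weights (8023 of 13401) and 4 without vehicle replicates 6 and 7 together (7307 of 13428), so that the 10 genes were called lower no more often than the table. Besides Nfe2l2 and Maff, the genes lower without the rRNA-type genes were Nfe2l1 (-0.17), Bach1 (-0.18), Mafg (-0.18) and Mafk (-0.33). Their limma adjusted p ran from 0.00118 for Mafk to 0.0116 for Nfe2l1. Directions turned for genes not called as deposited. Nfe2l1 was 0.0899 with median-of-ratios scaling and between -0.0865 and 0.0129 when 1 library was left out (0.0024 without S217879 replicate 2, 0.0129 without S217879 replicate 3). Keap1 was -0.0098 without the rRNA-type genes. Bach1 was 0.0788 with median-of-ratios scaling and 0.0400 with quantile normalization. Mafg was 0.0808 with median-of-ratios scaling and between -0.11 and 0.02 when 1 library was left out (0.018 without vehicle replicate 1, 0.0035 without vehicle replicate 8). Sqstm1 was -0.11 with quantile normalization, -0.12 without the rRNA-type genes, -0.0476 without the 20 genes of highest TPM, -0.0454 with array weights, -0.0378 in the Wilcoxon test, -0.0689 without vehicle replicates 6 and 7, and between -0.0292 and 0.0576 when 1 library was left out (-0.0292 without vehicle replicate 6, -0.0055 without vehicle replicate 7). Cul3 was -0.0729 without the rRNA-type genes, -0.0016 without the 20 genes of highest TPM, -0.10 with array weights, -0.10 in the Wilcoxon test, -0.0889 without vehicle replicates 6 and 7, and between -0.0198 and 0.10 when 1 library was left out. The cause was not tested.

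The 4 ratios with Nfe2l2 kept their call in 23 of 23 alternatives. The log2 difference of Sqstm1/Keap1 was -0.0854 without vehicle replicates 6 and 7 and no longer called, and -0.14 to -0.10 when 1 library was left out. That of Cul3/Keap1 was between -0.14 and -0.0260 when 1 library was left out, and called only without S217879 replicate 3. The r of Nfe2l2 with Nqo1 in S217879 was 0.0862 as deposited, and that of Sqstm1 with Nqo1 in vehicle -0.229 without 2 libraries. Without vehicle replicates 6 and 7, 21 core targets were higher and 1 lower, and 11 of 14 coactivators and corepressors were lower. In that setting 747 of all 13428 tested genes were higher and 7307 lower. Over all genes, 813 were higher and 3151 lower as deposited, against 3561 and 3634 with median-of-ratios scaling, 3536 and 3354 with quantile normalization, and 1519 and 8147 without the 20 genes of highest TPM. No paired analysis was possible because the labels number each animal separately and share no number between the groups.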
